A study of Mus musculus with 10 samples.

Results

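The genes described here are 10 genes of the unfolded protein response and of ER-associated degradation, measured by RNA sequencing of mouse pancreas. They are the stress sensors Ern1, Eif2ak3 and Atf6, the transcription factor Xbp1, the degradation genes Herpud1, Sel1l, Syvn1 and Edem1, and the folding factors Creld2 and Dnajc3. They were picked by symbol, and all 10 were found among the 24421 genes of the count table and passed the filter on low counts. The samples were pieces of the pancreas tail of 10 female mice aged 12 weeks, with 1 library per mouse. All groups carried Ptf1aCreER, whose inducible Cre is driven by the acinar transcription factor gene Ptf1a, and the nuclear reporter nTnG. Genotypes of Insr, which encodes the insulin receptor, set the groups: Insr WT (Insrw/w) had 0 floxed alleles and 3 mice, Insr Het (Insrw/f) had 1 floxed allele and 3 mice, and Insr KO (Insrf/f) had 2 floxed alleles and 4 mice. Ptf1a drives Cre in acinar cells, while a tail piece also holds duct, islet, stromal and immune cells, and the labels do not say when or whether Cre was induced in each mouse. The series asks, by its title, how the insulin receptor of acinar cells bears on digestive enzyme production and inflammation. Libraries are named by genotype and mouse number, as in WT-2404.

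The endoplasmic reticulum folds the proteins that a cell secretes, and acinar cells, which secrete digestive enzymes in bulk, carry a heavy load of it. Unfolded protein in its lumen activates 3 sensors. The product of Ern1, IRE1 alpha, cuts the mRNA of Xbp1 so that it can be spliced into the form that encodes the active transcription factor. The product of Eif2ak3, PERK, phosphorylates a translation initiation factor and slows protein synthesis, and ATF6 moves to the Golgi, where proteases release its transcription factor part. Their targets include chaperones and the machinery of ER-associated degradation, which draws misfolded proteins back into the cytosol to be ubiquitinated and destroyed. At its core stands the ubiquitin ligase HRD1, the product of Syvn1, held by its partner SEL1L. HERPUD1 is a membrane protein of the same complex, and EDEM1 selects glycoproteins whose sugar chains have been trimmed. CRELD2 is a secreted ER stress-inducible protein, and DNAJC3 is a co-chaperone in the ER lumen. Gene counts show neither the splicing of Xbp1 mRNA nor the activity of any sensor.

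The promoters of the 10 genes were searched for elements known from this response. RefSeq windows of the GRCm38.p6 build, the assembly that mm10 corresponds to, were found for 9 of the 10 genes, from 250 bases before to 50 bases after the start; Atf6 had none. Both strands were searched for the ER stress response element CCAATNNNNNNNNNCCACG, the ER stress response element II ATTGGNCCACG and the UPR element TGACGTGG, and the first 2 motifs share the letters CCACG. The first was found in Creld2, Dnajc3 and Syvn1, the second in Herpud1, and the UPR element in 0 of the 9 windows. Of all 32851 windows of this length, 0.119% held the first, 0.0365% the second and 0.676% the UPR element. The 250 bases before the start are shown for the 4 genes with a match, which is in capitals, because few windows hold these letters:
Herpud1, chr8:94386179-94386428, plus strand: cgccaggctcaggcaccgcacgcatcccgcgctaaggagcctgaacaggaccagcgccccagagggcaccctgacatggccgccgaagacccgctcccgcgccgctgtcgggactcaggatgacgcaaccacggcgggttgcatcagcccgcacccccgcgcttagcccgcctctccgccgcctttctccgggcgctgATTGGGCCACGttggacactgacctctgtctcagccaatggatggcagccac
Syvn1, chr19:6046326-6046575, plus strand: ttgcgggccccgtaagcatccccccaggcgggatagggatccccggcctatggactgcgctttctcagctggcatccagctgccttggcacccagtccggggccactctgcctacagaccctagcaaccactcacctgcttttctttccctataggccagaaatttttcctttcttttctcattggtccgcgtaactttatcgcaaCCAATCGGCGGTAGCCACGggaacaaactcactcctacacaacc
Creld2, chr15:88819396-88819645, plus strand: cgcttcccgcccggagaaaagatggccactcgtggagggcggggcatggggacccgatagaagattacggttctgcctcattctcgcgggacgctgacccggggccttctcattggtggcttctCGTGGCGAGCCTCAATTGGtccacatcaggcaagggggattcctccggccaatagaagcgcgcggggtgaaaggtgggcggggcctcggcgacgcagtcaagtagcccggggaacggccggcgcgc
Dnajc3, chr14:118937682-118937931, plus strand: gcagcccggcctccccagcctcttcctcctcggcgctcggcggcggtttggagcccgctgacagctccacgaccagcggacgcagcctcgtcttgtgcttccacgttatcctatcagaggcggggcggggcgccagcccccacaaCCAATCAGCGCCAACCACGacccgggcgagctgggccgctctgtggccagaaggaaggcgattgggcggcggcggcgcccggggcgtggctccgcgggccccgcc
The match lay 52 to 42 bases before the start in Herpud1, 44 to 26 in Syvn1 and 105 to 87 in Dnajc3, each on the gene's own strand, and 126 to 108 bases before the start in Creld2, on the opposite strand. A match is a run of letters and does not show that a factor binds there, and its absence from the windows of Xbp1, Sel1l, Edem1, Ern1 and Eif2ak3 says only that these letters are not in them.

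Libraries differed in depth and in their digestive enzymes. Gene counts ran from 11718559 to 19024351 per library, and the counts of any of the 10 genes from 100 (Ern1 in KO-2070) to 9808 (Sel1l in KO-2079). The share of gene counts that fell on digestive enzyme genes was 70.8% to 77.3% in 7 libraries, and lower in WT-2404 (15.7%), WT-1860 (58.3%) and KO-2124 (62.3%). The TMM factor, which scales library sizes on the bulk of genes, was highest in WT-2404 (3.53) and lowest in KO-2126 (0.596). Its log2 fell as the enzyme share went up (Pearson r = -0.961, Spearman rho = -0.952, 10 libraries). The permutation p was 1e-05 for r, the smallest that the permutations can give, and 0.00014 for rho. Both measures are computed from the same counts, so they are not independent and these p describe the scaling only. Without WT-1860 and WT-2404, r was -0.994. Levels are given as CPM (counts-per-million), with counts scaled by library size times its TMM factor. The targeted gene Insr stood at 21.0, 27.8 and 40.5 CPM in WT-2404, WT-1860 and WT-2067, at 43.1, 44.2 and 28.2 CPM in Het-2066, Het-1770 and Het-2042, and at 22.7, 33.3, 35.4 and 34.6 CPM in KO-2079, KO-2070, KO-2124 and KO-2126. Insr differed between KO and WT by 0.09 on the log2 scale (SE 0.26, edgeR adjusted p = 0.864), so its counts in whole tissue do not check the labels. The table does not show which exons were read. Of 14 acinar marker genes all were counted in every library, led by Ctrb1.

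With TMM scaling all 10 genes had higher mean levels in the KO than in the WT libraries, and none passed the test; with library size alone, which lowers the bulk of genes in KO and Het, 8 of the 10 were below 0. The log2 fold changes of KO against WT ran from 0.35 to 1.10 with a median of 0.64, beside 0.03 for all 13688 tested genes. In edgeR's quasi-likelihood test 0 of 10 had an adjusted p under 0.05, and 0 of 13688 genes did (0% called), the smallest being 0.116. At an unadjusted p under 0.05 the count was 0 of 10, where 23.5% of all genes passed; with DESeq2 0 of 10 passed at an adjusted p under 0.05 (7.48% of all genes did) and 3 at an unadjusted one (19.4% did). The CPM ranges of KO and WT mice overlapped for all 10, while for 15.9% of all genes they did not. In Het against WT the means of 10 of 10 were higher, with a median of 0.61, while the ranges overlapped and none passed; with library size alone 9 of the 10 were below 0. In KO against Het 6 of 10 were higher and the median was 0.08, from 1 of 10 and -0.10 without KO-2126 to 10 of 10 and 0.17 without Het-1770 or 0.16 without KO-2124. Reads outside genes, 2.59% to 5.14% of counts in 7 libraries, reached 7.83% (WT-2404), 7.001% (WT-1860) and 8.71% (KO-2124) in the libraries with the lowest enzyme shares; its part in the lower WT levels was not tested. The plot of levels by library shows the spread behind these values.

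**Figure D1:**
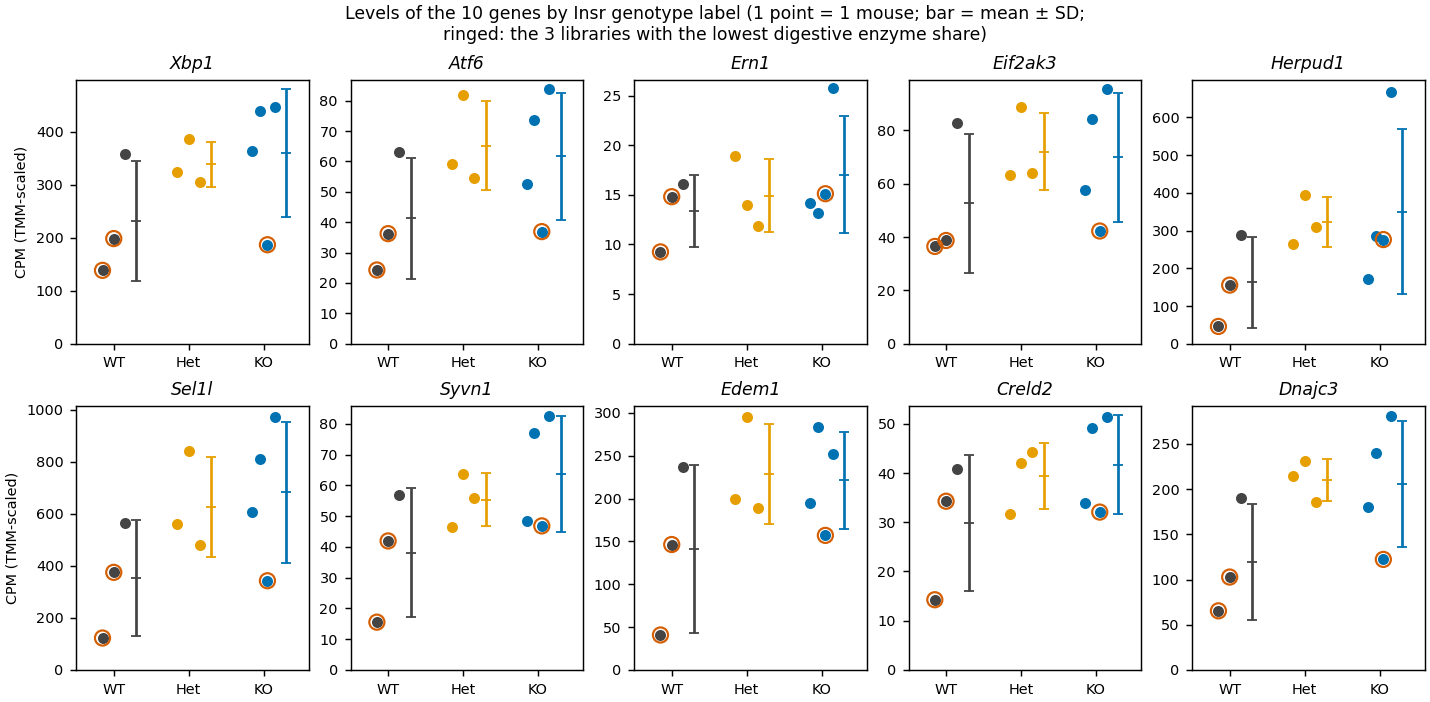
CPM of each of the 10 genes, 1 point per mouse, by Insr genotype, with the mean and SD of each group. Rings mark the 3 libraries with the lowest digestive enzyme share (WT-2404, WT-1860 and KO-2124). With TMM scaling WT-2404 is the lowest point of every gene, and the ranges of KO and WT overlap in every gene.

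Xbp1 encodes the transcription factor that Ern1 activates, and it is needed for the dense rough ER of acinar cells. Its level was 138, 198 and 357 CPM in WT-2404, WT-1860 and WT-2067. It was 324, 386 and 305 CPM in Het-2066, Het-1770 and Het-2042, and 363, 440, 187 and 445 CPM in KO-2079, KO-2070, KO-2124 and KO-2126. KO-2124 lay below WT-1860 and WT-2067, while the other 3 KO libraries lay above every WT library. The WT mean was 231 ± 113 CPM, the Het mean 339 ± 42.6 CPM and the KO mean 359 ± 121 CPM (SD over 3, 3 and 4 mice). KO differed from WT by 0.63 on the log2 scale (SE 0.38, edgeR adjusted p = 0.320), and the exact permutation test over mice gave p = 0.229, where 0.0286 is the smallest possible.

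The sensors were read at lower levels. Ern1 was read at 9.25, 14.8 and 16.1 CPM in WT-2404, WT-1860 and WT-2067, at 18.9, 14.0 and 11.8 CPM in Het-2066, Het-1770 and Het-2042, and at 14.2, 13.2, 15.1 and 25.8 CPM in KO-2079, KO-2070, KO-2124 and KO-2126. KO-2126 stood alone at the top, and the other 3 KO libraries lay within the WT range. Atf6 averaged 41.3 ± 19.97 CPM in WT, 65.2 ± 14.7 in Het and 61.7 ± 21.0 in KO (SD over 3, 3 and 4 mice). Eif2ak3 averaged 52.6 ± 26.1 CPM in WT, 71.98 ± 14.4 in Het and 69.8 ± 24.3 in KO, with the same numbers of mice. For both genes the lowest KO library was KO-2124, at 36.9 and 42.3 CPM, and KO-2126 was the highest library of all. The log2 fold changes of KO against WT were 0.35 for Ern1 (SE 0.28, edgeR adjusted p = 0.449), 0.58 for Atf6 (SE 0.35, adjusted p = 0.320) and 0.41 for Eif2ak3 (SE 0.35, adjusted p = 0.483).

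The degradation genes had the widest spread. Herpud1 was at 45.9, 156 and 287 CPM in WT-2404, WT-1860 and WT-2067, at 264, 394 and 311 CPM in Het-2066, Het-1770 and Het-2042, and at 171, 285, 276 and 668 CPM in KO-2079, KO-2070, KO-2124 and KO-2126. The highest library was 14.5-fold above the lowest, and 1 KO library exceeded every WT library. Its log2 fold change of KO against WT was the largest of the 10, at 1.10 (SE 0.58, edgeR adjusted p = 0.263; exact permutation p = 0.200). Sel1l, the partner of HRD1, was at 123, 375 and 566 CPM in the WT libraries in that order, at 559, 842 and 478 CPM in the Het libraries and at 606, 811, 343 and 972 CPM in the KO libraries. All KO libraries but KO-2124 lay above the WT range, and KO exceeded WT by 0.95 on the log2 scale (SE 0.50, edgeR adjusted p = 0.265; exact permutation p = 0.171). Syvn1, which encodes the ligase, was at 15.5, 41.9 and 57.0 CPM in WT, at 46.4, 63.5 and 56.0 CPM in Het and at 48.3, 77.2, 46.8 and 82.4 CPM in KO, in the same order. KO-2070 and KO-2126 stood above every WT library and the other 2 KO libraries stood within the WT range, for a log2 fold change of 0.74 (SE 0.38, edgeR adjusted p = 0.252; exact permutation p = 0.171). Edem1 had 141 ± 97.9 CPM in WT, 228 ± 58.2 in Het and 222 ± 56.5 in KO (SD over 3, 3 and 4 mice), a log2 fold change of 0.65 of KO against WT (SE 0.47, edgeR adjusted p = 0.404).

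Of the folding factors, Dnajc3 had the smallest p of the 10 genes in KO against WT. It was at 65.4, 103 and 190 CPM in WT-2404, WT-1860 and WT-2067, at 214, 231 and 186 CPM in Het-2066, Het-1770 and Het-2042, and at 180, 240, 122 and 281 CPM in KO-2079, KO-2070, KO-2124 and KO-2126. Its WT mean was 120 ± 64.1 CPM, its Het mean 210 ± 22.9 CPM and its KO mean 206 ± 69.3 CPM (SD over 3, 3 and 4 mice). KO-2070 and KO-2126 lay above the WT range, while KO-2124 and KO-2079 lay within it. KO differed from WT by 0.78 on the log2 scale (SE 0.38, edgeR p = 0.0581, adjusted p = 0.227; exact permutation p = 0.143). Creld2 had 29.8 ± 13.8 CPM in WT, 39.4 ± 6.76 in Het and 41.7 ± 10.1 in KO (SD over 3, 3 and 4 mice), with a log2 fold change of 0.49 (SE 0.32, edgeR adjusted p = 0.366).

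**Figure D2:**
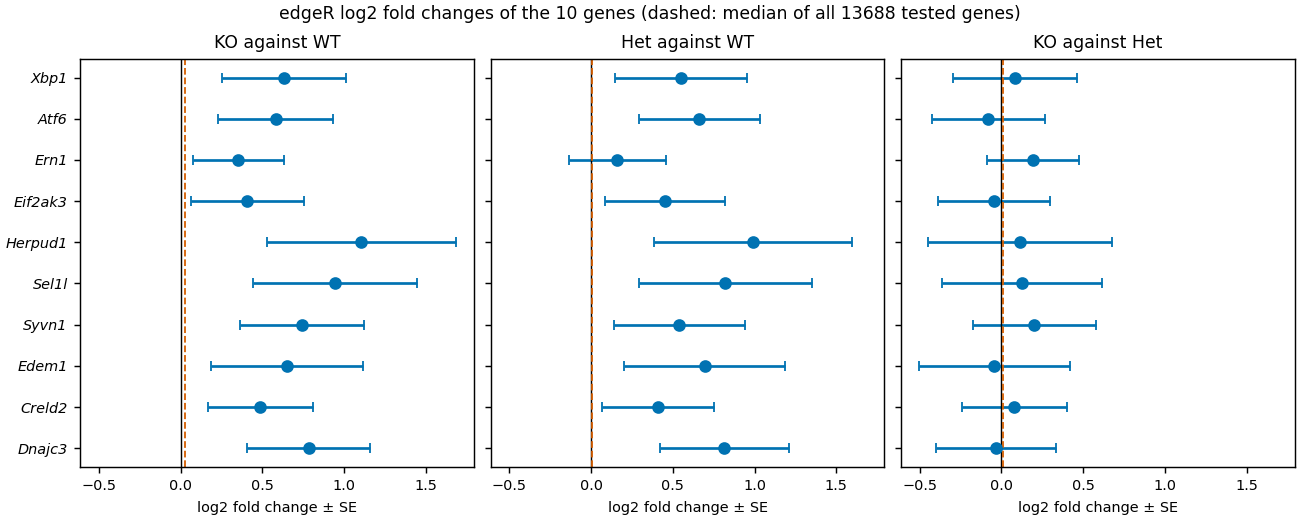
edgeR log2 fold changes with standard errors of the 10 genes in KO against WT, Het against WT and KO against Het; the dashed line is the median of all 13688 tested genes. All 10 points lie above that line in both comparisons with WT, where no gene passed the test, and on both sides of 0 in KO against Het.

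In Het against WT the log2 fold changes were 0.99 for Herpud1, 0.82 for Sel1l, 0.82 for Dnajc3, 0.69 for Edem1, 0.66 for Atf6, 0.55 for Xbp1, 0.54 for Syvn1, 0.45 for Eif2ak3, 0.41 for Creld2 and 0.16 for Ern1. Standard errors ran from 0.30 to 0.61 and edgeR adjusted p from 0.268 to 0.776. None of the 10 passed at an adjusted p under 0.05 (0% of all genes did), none at an unadjusted p under 0.05 (19.8% of all genes did), and the ranges of all 10 overlapped (24.8% of all genes had ranges apart). This comparison shares the WT libraries with KO against WT, so the likeness of the values is not a second measurement. With DESeq2 0 of 10 passed in Het against WT (2.91% of all genes did), and 1 at an unadjusted p under 0.05 (17% did). In KO against Het the log2 fold changes lay between -0.08 (Atf6) and 0.20 (Syvn1), each with an edgeR adjusted p of 1.0. There too 0 of 10 genes passed at an adjusted p (0% of all genes) or an unadjusted p under 0.05 (0.752% of all genes), and 0 had ranges apart (2.46% of all genes), and DESeq2 gave 0 at either p as well (0% and 0.871% of all genes). Standard errors in KO against Het ran from 0.28 to 0.56, so these values do not show that the genotypes are alike. The slope per floxed allele was positive for all 10, with a median of 0.31 per allele on the log2 scale and a smallest edgeR adjusted p of 0.271. Of all genes 0% passed the adjusted threshold for the slope and 21.2% an unadjusted p under 0.05, against 0 of the 10.

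The sign against WT differed between scalings for most of the 10 genes. With library size alone in place of TMM factors, the KO against WT log2 fold changes were -0.41 for Xbp1, -0.45 for Atf6, -0.71 for Ern1, -0.68 for Eif2ak3, -0.15 for Syvn1, -0.11 for Edem1, -0.46 for Creld2 and -0.21 for Dnajc3, and 0.33 for Herpud1 and 0.05 for Sel1l. The median of the 10 was then -0.31, and that of all genes -1.17, so each of the 10 lay above the all-gene median under both scalings. In Het against WT it was -0.42 beside -1.36, with Ern1 the lowest of the 10 at -1.01. One library weighed on the size as well. Without WT-2404 the median of the 10 in KO against WT was 0.32, with Herpud1 at 0.64, Sel1l at 0.52, Dnajc3 at 0.47, Xbp1 at 0.35, Syvn1 at 0.35, Atf6 at 0.29, Edem1 at 0.20, Eif2ak3 at 0.18, Creld2 at 0.14 and Ern1 at 0.13. Without WT-2067 it was 1.13, and Dnajc3 alone of the 10 passed, at 1.30 (edgeR adjusted p = 0.0360). In that fit 1933 genes passed, 882 of them higher in KO. At an unadjusted edgeR p under 0.05 stood 9 of the 10, beside 4600 of all genes tested in it. The plot of settings puts these values side by side.

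**Figure D3:**
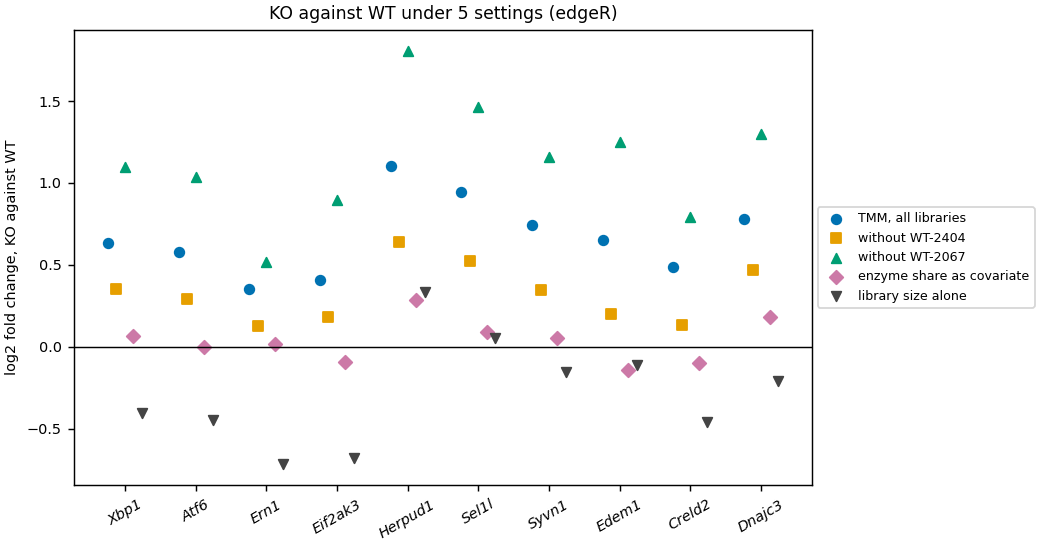
Log2 fold change of each of the 10 genes in KO against WT under chosen processing settings. These are TMM with all libraries, without WT-2404, without WT-2067, the enzyme share as covariate, and library size alone. The median of the 10 was -0.31 with library size alone, 0.04 with the covariate, 0.32 without WT-2404 and 1.13 without WT-2067.

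With TMM scaling 9 of the 10 genes went up with the digestive enzyme share in an edgeR fit of all tested genes on that share, without genotype, adjusted over all of them; 15.9% of all genes went up with it and 15.7% went down. The fit was chosen after seeing the data. The slopes, per 10 percentage points on the log2 scale, ran from 0.21 for Eif2ak3 (SE 0.06, edgeR adjusted p = 0.00921) to 0.51 for Herpud1 (SE 0.09, adjusted p = 0.0005), and Ern1 had 0.14 (SE 0.05, adjusted p = 0.0538). The median slope of all genes was 0.0057. Pearson's r of log2 CPM with the share of gene counts taken by enzymes was 0.99 for Edem1, 0.96 for Syvn1, 0.95 for Sel1l, 0.94 for Creld2, 0.92 for Dnajc3, 0.90 for Herpud1, 0.88 for Atf6, 0.87 for Xbp1, 0.76 for Eif2ak3 and 0.62 for Ern1. Spearman's rho was 0.84 to 0.95 for those 9 and 0.13 for Ern1, over 10 libraries. Raw permutation p for r ran from 1e-05, the smallest possible, to 0.00127 for the 9 genes, and for rho from 8e-05 to 0.00377. For Ern1 the permutation p was 0.105 for r and 0.736 for rho. Without WT-1860 and WT-2404, r was 0.79 to 0.96 for 8 genes, 0.50 for Herpud1 and 0.20 for Ern1, so the relation of Herpud1 rests in part on those libraries. Genotype and enzyme share are not separate here, since the WT group holds both of the lowest shares.

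The TMM factor itself moves with the enzyme share, and library size alone pulls most genes the other way: 88.4% of all genes then went down with the share in the edgeR fit and 0.796% went up, with a median slope of -0.40. All 10 genes had slopes above that median, the lowest being -0.27 for Ern1. With library size alone r was -0.88 for Xbp1, -0.93 for Atf6, -0.81 for Ern1, -0.91 for Eif2ak3, -0.44 for Syvn1, -0.70 for Creld2 and -0.89 for Dnajc3, and 0.36 for Herpud1, 0.39 for Sel1l and 0.26 for Edem1. Scaled to the counts outside the enzyme list, r was 0.63 to 0.97 for 9 genes and 0.16 for Ern1. Both of these scalings were chosen after seeing the data. The enzyme share was also used as a covariate, entered as its log odds rather than in percentage points. The median log2 fold change of the 10 in KO against WT was then 0.04, with 6 of 10 higher, and none passed. In bulk tissue, fewer acinar cells and less RNA per acinar cell cannot be told apart.

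**Figure D4:**
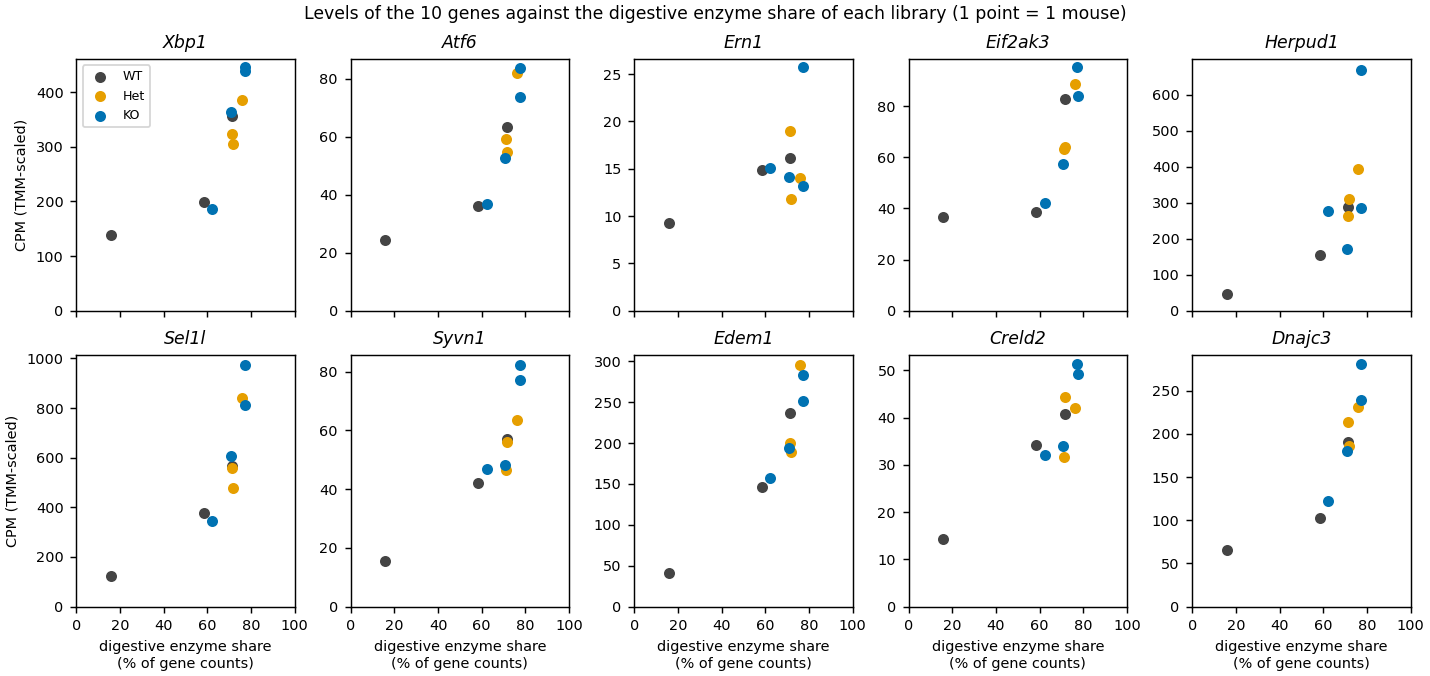
CPM of each gene against the percent of gene counts taken by digestive enzyme genes, 1 point per mouse, coloured by genotype. With TMM scaling WT-2404 (15.7%) is the lowest point of every gene, and Ern1 is the gene whose points follow the share least (r = 0.62 over 10 libraries).

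Set against the enzyme counts, WT-2404 was the highest library, where it was the lowest with TMM scaling. Per 10000 digestive enzyme counts it had 31.1 counts of Xbp1, where the other 9 libraries had 3.24 to 5.31. It ranked highest for all 10 genes, from 1.72 times the next library for Herpud1 to 7.92 times for Eif2ak3. WT-2404 had the lowest enzyme share, 15.7% of gene counts, which raises this ratio for genes outside the enzyme list in general. The ratio was not computed for other genes, so this rank is not particular to the 10. Ratios between the 10 genes do not depend on scaling. Counts of Dnajc3 per count of Xbp1 lay between 0.473 and 0.661 in all libraries, a 1.40-fold range, and those of Atf6 between 0.145 and 0.212. Herpud1 per count of Xbp1 ranged 4.52-fold, from 0.332 in WT-2404 through 0.470 in KO-2079 to 1.48 in KO-2124 and 1.50 in KO-2126. So the KO libraries alone spanned most of the range of that ratio.

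Markers of other cells differed in level between the groups, and 0 passed an adjusted p under 0.05. These are values with TMM scaling, where 51.8% of all tested genes were higher in KO against WT. For KO against WT, 13.9% of all genes were lower and 9.6% higher at an unadjusted p under 0.05. The summed CPM of 15 myeloid markers, led by Lyz2, was 515 to 2103 in WT, 281 to 412 in Het and 158 to 590 in KO, and 15 of 15 were lower in KO against WT, each at an unadjusted edgeR p under 0.05. Fibroblast markers, led by Col3a1, summed to 1330 to 4590 CPM in WT, 547 to 1039 in Het and 479 to 1189 in KO, with 11 of 12 lower. Plasma and B cell markers, which matter because plasma cells also depend on Xbp1, summed to 101 to 173, 37.7 to 53.2 and 22.1 to 74.0 CPM, with 8 of 8 tested lower. They were led by Sdc1, with a mean of 33.5 CPM, so this 1 gene weighs on the sum. Of the 13, 9 were in the table, and Ighm, Igha, Ighg1 and Igkc were not. Mzb1, Tnfrsf17, Ms4a1 and Pax5 had 0 counts in at least 1 library. Of 12 T cell markers 9 were in the table, and 9 of 9 were lower; they summed to 6.92 to 19.0, 3.77 to 6.38 and 2.52 to 10.3 CPM, with Cd3d, Cd3g, Cd8a and Cd8b1 at 0 in at least 1 library. Acinar markers summed to 23189 to 421555 CPM in WT, 420987 to 622264 in Het and 236126 to 702319 in KO, and 14 of 14 were higher in KO against WT. The ductal sum, led by Tff2 with a mean of 1424 CPM, was 1946 to 2561, 2375 to 2938 and 1974 to 2652 CPM, while 11 of 14 ductal markers were lower in KO against WT, 8 of them at an unadjusted p under 0.05, with a median log2 fold change of -1.23. Islet markers, led by Ins2, summed to 493 to 5823, 5068 to 10083 and 3691 to 8686 CPM, adipocyte markers to 33.6 to 43.5, 57.9 to 84.6 and 41.6 to 84.4 CPM, and endothelial markers to 112 to 174, 151 to 173 and 105 to 222 CPM. The part of these cells in the levels of the 10 genes was not tested.

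The genes also differed in level and in how much they varied. Per kilobase of annotated exon (GENCODE M21), the mean level over the 10 libraries was 122 ± 71.0 CPM per kb for Herpud1, 96.8 ± 33.0 for Xbp1, 66.3 ± 30.01 for Sel1l, 35.2 ± 13.0 for Dnajc3, 30.9 ± 11.6 for Edem1, 27.4 ± 7.86 for Creld2, 11.01 ± 3.89 for Syvn1, 10.8 ± 3.60 for Eif2ak3, 6.13 ± 2.16 for Atf6 and 1.87 ± 0.547 for Ern1 (SD, n = 10). The sensors thus stood at the bottom, and Ern1 lay under Atf6 in 10 of 10 libraries. Herpud1 and Xbp1 kept their order in 7 of 10 libraries, Dnajc3 and Edem1 in 7, Edem1 and Creld2 in 7, and Syvn1 and Eif2ak3 in 6. The order of these neighbours is thus not settled, and the differences between them were not tested. Herpud1 overlaps the antisense gene Gm15890, Syvn1 overlaps Mrpl49 on the other strand and Eif2ak3 overlaps Gm43292; whether counting used strand is not given in the sources used here, so these levels are uncertain to that extent. The SD of log2 CPM over libraries was 1.02 for Herpud1, 0.86 for Sel1l and 0.82 for Edem1, and 0.39 for Ern1, beside a median of 0.41 for all tested genes. The highest library exceeded the lowest 7.92-fold for Sel1l, 7.24-fold for Edem1, 5.31-fold for Syvn1 and 2.62-fold for Eif2ak3. With TMM scaling WT-2404 was the lowest library for all 10, and KO-2126 the highest for all but Edem1, whose highest was Het-1770.

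Over the 10 libraries, log2 CPM of the 10 genes followed each other, with Ern1 apart. Pearson's r over the 45 pairs ran from 0.52 for Ern1 and Eif2ak3 to 0.99 for Syvn1 and Creld2, and the 9 lowest were the 9 pairs of Ern1. All points share the scaling and WT-2404, without which Ern1 and Eif2ak3 had an r of 0.29. Of all other tested genes, those most like Xbp1 were Gata4 (r = 0.997), Mia3 (r = 0.994), Prrc1 (r = 0.987), Snd1 (r = 0.986) and Ctage5 (r = 0.985), over 10 libraries. Gata4, which is on the list of acinar markers used here, encodes a transcription factor, and Mia3 a protein of ER exit sites that helps load large cargo. Among the 10, Atf6 (r = 0.969) and Dnajc3 (r = 0.967) were nearest to Xbp1.

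The other pathway lists were read with TMM scaling only, where 51.8% of all tested genes were higher in KO against WT. They were not compared with library size alone. Of 20 other sensors, activators and transducers, 12 were higher and 8 lower in KO against WT. The median log2 fold change of these 20 was 0.10, and 0 passed the adjusted threshold. At an unadjusted p under 0.05 stood 3 higher and 1 lower, beside 9.6% and 13.9% of all genes. Ppp1r15a, which restores translation after PERK has slowed it, averaged 9.76 ± 0.362 CPM in the 3 WT and 15.5 ± 3.80 CPM in the 4 KO libraries (SD), a log2 fold change of 0.67 (SE 0.24, edgeR adjusted p = 0.138). Creb3l3 was at 1.02 and Wfs1 at 0.49 (edgeR adjusted p = 0.173 for both), while Nfe2l2 was at -0.72 (adjusted p = 0.127), Trib3 at -0.998 (adjusted p = 0.230) and Ern2 at -1.40 (adjusted p = 0.315). Atf4, the transcription factor downstream of PERK, had a log2 fold change of 0.45 (edgeR adjusted p = 0.364). Its target Ddit3 had -0.03 (adjusted p = 0.957), and Atf6b, the paralog of Atf6, -0.01 (adjusted p = 0.982).

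With TMM scaling, 30 of 35 other genes of ER-associated degradation were higher and 5 lower in KO against WT. Of all tested genes, 51.8% were higher. The median log2 fold change of the 35 was 0.36, and 0 passed. At an unadjusted p under 0.05, 5 were higher and 0 lower, beside 9.6% and 13.9% of all genes. In Het against WT 32 were higher and 3 lower, where 50.3% of all tested genes were higher. Vimp, listed now as Selenos and part of the retrotranslocation complex, was at 0.97 (SE 0.38, edgeR adjusted p = 0.164), Ngly1, which strips sugar chains from extracted glycoproteins, at 0.74 (SE 0.31, adjusted p = 0.178), and Ubxn6 at 0.42 (SE 0.17, adjusted p = 0.173). Derl3, a channel component, was at 0.87 (SE 0.64, edgeR adjusted p = 0.422). Of those that were lower, the smallest p belonged to Faf2 at -0.22, Jkamp at -0.13 and Bcap31 at -0.11, with edgeR adjusted p of 0.444, 0.681 and 0.738. Of 17 ER chaperones and folding enzymes, 12 were higher and 5 lower in KO against WT with TMM scaling, beside the same 51.8%. The median of the 17 was 0.51, and again 0 passed. At an unadjusted p under 0.05, 5 were higher and 2 lower, beside the same 9.6% and 13.9%. Sdf2l1 was at 0.85, Manf at 0.83 and Hyou1 at 0.78 (edgeR adjusted p = 0.132, 0.182 and 0.190), and Hspa5, the main Hsp70 of the ER, at 0.69 (SE 0.31, adjusted p = 0.203). Of those that were lower, the smallest p belonged to disulfide isomerases: Dnajc10 was at -0.50, Pdia4 at -0.49 and Pdia3 at -0.46, with edgeR adjusted p of 0.164, 0.198 and 0.249. Of the 12 chaperone genes with a RefSeq window, 5 held the ER stress response element (Calr, Canx, Hsp90b1, Hspa5 and Pdia6) and Dnajb11 held the ER stress response element II. Of 26 windows of other degradation genes, that of Derl3 held the first element and those of Ube2j1 and Vcp the UPR element, and 0 of 16 windows of the other sensors held any of the 3.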

How the data were processed

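The deposited values are raw counts per gene symbol, made by the authors from libraries of a stranded mRNA kit, per the labels' protocols. Genome build mm10 and the tools DRAGEN, STAR and Cufflinks are named, without roles, in the submitters' processing notes; the counting tool, annotation and strand setting are not given in the sources used here. A further allele, shared by all groups, is not reported here. A label counts 1 more WT mouse, which was not analysed here. Rows that name no gene (2) held 2.59% to 8.71% (reads outside genes) and 0.101% to 0.584% (ambiguous reads) of counts and stayed out of library sizes. Columns were matched by genotype and mouse number.

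Of 24421 genes, 13688 passed filterByExpr (minimum count 10) and were tested in 1 fit of all 10 libraries with edgeR 4.0.16 (TMM, quasi-likelihood, robust, two-sided; R 4.3.3), adjusted by Benjamini and Hochberg's method at 0.05; log2 CPM used a prior count of 2. DESeq2 1.42.0, other scalings and filters and left-out mice were alternatives. Single values were compared by exact permutation over mice, two-sided, and correlations by 100000 permutations. The labels name no batch. P-values measure the spread between these mice, which includes that between tissue pieces and libraries, with 1 library per mouse. Fits were tested on simulated data. The 10 genes and all lists were chosen with earlier results of these data known. Named were the 10 genes, Hspa5, Atf4, Ddit3, Atf6b and Derl3, up to 3 genes per direction of each pathway list by unadjusted p, the 5 genes most like Xbp1, and marker lists by their sums; the 5 of the 10 genes with the smallest p, and Ern1, added after its values were seen, have their level in every library.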

Additional observations from a re-analysis of the deposited data

Results flagged for a closer look

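Of 22 measures checked in the KO group for a mouse far from the other 3, 2 stood out, where chance would flag about 1 in 20. Ern1 reached 25.8 CPM in KO-2126, where the remaining KO libraries had 13.2 to 15.1 CPM. Reads outside genes were 8.71% of the total in KO-2124, where the remaining KO libraries had 2.59% to 3.48%; outside the KO group WT-2404 had 7.83% and WT-1860 7.001%. KO-2124 also had the lowest enzyme share of the KO group, at 62.3%.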

How the results depend on the processing

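No paired analysis was possible because the groups share no mouse numbers. Over 17 other fits per comparison, the 10 genes' log2 fold changes were set beside the main fit. They kept their direction and their side of the threshold in 157 of 170 values for KO against WT. In Het against WT it was 151 of 170, and in KO against Het 147 of 170. Causes of the changes were not tested. Some of these fits left out only a mouse of the group not compared. Xbp1 in KO against WT was 0.64 without Het-2066, beside 0.63 in the main fit. Genes past the threshold, 0 in KO against WT, numbered 2835 with library size alone (0 of them higher), 1015 with DESeq2 (293 higher) and 0 to 1933 leaving out 1 mouse (1933 without WT-2067); in Het against WT 3125, 385 and 0 to 1158, and for the slope 445 with DESeq2 and 0 to 11 leaving out 1 mouse. Of the 10 genes, 0 to 1 passed leaving out 1 mouse in each comparison with WT (Dnajc3 without WT-2067, at 1.30 and 1.33, edgeR adjusted p = 0.0360 and 0.0488). In those fits without WT-2067, 1933 and 1158 of all genes passed. The median of the 10 was -0.31 with library size alone in KO against WT, and for Het against WT -0.42 with library size alone and -0.025 with the enzyme share as covariate.

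Values that turned with library size alone were, in KO against WT, Xbp1 -0.41, Atf6 -0.45, Ern1 -0.71, Eif2ak3 -0.68, Syvn1 -0.15, Edem1 -0.11, Creld2 -0.46 and Dnajc3 -0.21. In Het against WT they were Xbp1 -0.52, Atf6 -0.42, Ern1 -1.01, Eif2ak3 -0.68, Sel1l -0.10, Syvn1 -0.42, Edem1 -0.17, Creld2 -0.62 and Dnajc3 -0.21, and in KO against Het Eif2ak3 0.00077 and Edem1 0.055. With the enzyme share as covariate, Atf6 -0.0017, Eif2ak3 -0.091, Edem1 -0.14 and Creld2 -0.099 turned for KO against WT, and Xbp1 -0.0024, Ern1 -0.18, Eif2ak3 -0.036, Sel1l -0.015, Syvn1 -0.14, Edem1 -0.12 and Creld2 -0.18 in Het against WT. Leaving out 1 mouse turned Ern1 in Het against WT (-0.044 to 0.32). In KO against Het it gave Xbp1 -0.039 to 0.27, Atf6 -0.26 to 0.12, Ern1 -0.072 to 0.40, Eif2ak3 -0.23 to 0.13, Herpud1 -0.41 to 0.34, Sel1l -0.10 to 0.40, Edem1 -0.18 to 0.19, Creld2 -0.054 to 0.17 and Dnajc3 -0.22 to 0.12. Correlations with the enzyme share that turned with library size alone were Xbp1 -0.88, Atf6 -0.93, Ern1 -0.81, Eif2ak3 -0.91, Syvn1 -0.44, Creld2 -0.70 and Dnajc3 -0.89, and those that no longer passed were Herpud1 0.36, Sel1l 0.39 and Edem1 0.26. Each of the 10 genes had 100 or more counts in every library; how counting error and the spread between mice share in the errors was not tested.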
